A study of Mus musculus with 12 samples.

Results

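The MHC class I pathway was followed through 10 genes in tumour macrophages sorted by a fluorescent reporter: B2m, H2-K1, H2-D1, Tap1, Tap2, Tapbp, Psmb8, Psmb9, Nlrc5 and Erap1. They were picked by name, from a rule that uses no measured value, though with earlier results of these data known. The array carried 12 probes for these 10 genes, with 2 probes each for H2-K1 and Nlrc5 and 1 for each of the others. All 10 passed the filter on dim probes and are among the 20370 genes and features tested.

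RNA came from macrophages sorted from mouse pancreas tumours, 6 arrays labelled YFP+ and 6 labelled YFP-. Both groups shared the strain (C57/B6), the sex (female), the age (8 to 10 weeks) and the tissue (tumours that had been implanted), and cells were sorted straight into lysis buffer. The genotype of every sample is given as "Not provided". The design text of the series names wild-type, KPC and FLT3-CRE/LSL-YFP mice without assigning them to samples. In a mouse of the last kind a Cre recombinase under Flt3 control switches on yellow fluorescent protein in cells with a history of Flt3 expression, and their descendants. The labels give neither the tumour line nor the number of animals behind a sample. The sample titles carry 6 tumour numbers, each present once in each group, but do not say whether equal numbers mean the same animal, so a p-value here covers only how far these samples scatter, and part of that scatter may be technical.

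Class I molecules display short peptides from inside the cell to cytotoxic T cells. The peptides are cut by the proteasome, whose catalytic subunits can be exchanged for inducible ones, pumped into the endoplasmic reticulum by the TAP transporter, trimmed there, and loaded onto a heavy chain paired with beta-2-microglobulin. Nearly all nucleated cells carry the pathway, and interferons raise it. Macrophages use it both for their own proteins and, by cross-presentation, for material they have taken up.

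None of the 10 genes differed between YFP+ and YFP- macrophages after adjustment over all genes (limma, adjusted p under 0.05), where 1.75% of all genes tested were called. The nearest was Psmb9, an inducible proteasome subunit, which was 1.46-fold brighter in YFP+ cells and higher in YFP+ at all 6 tumour numbers, with an adjusted p of 0.318 (limma). For the heavy chains H2-K1 and H2-D1 the 95% intervals ran from 1.38-fold lower to 1.21-fold higher and from 1.41-fold lower to 1.26-fold higher in YFP+. The least precise was the trimming enzyme Erap1, whose interval spanned 3.22-fold lower to 2.99-fold higher. The groups overlapped for each of the 10, against 1.88% of all genes tested whose groups did not.

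Values below are levels on a log2 scale, the processed red signal minus the array's 75th percentile, so that 0 is the signal at that percentile. Differences are YFP+ minus YFP- on the same scale, with the standard error (SE) and 95% interval of the limma fit and n = 6 arrays in each group. The 75th percentile itself was higher on the YFP+ arrays (3660 ± 266 intensity units, SD, range 3260 to 3930) than on the YFP- arrays (2641 ± 412, range 2121 to 3329). Markers of other cells moved with the groups too. All 10 epithelial markers were lower in YFP+ and 5 fell, with Krt8 at -2.59 and Muc1 at -2.31. All 10 fibroblast markers were lower and 7 fell, with Mfap5 at -2.59 and Postn at -2.53. The summed level of the epithelial markers ran from 2.32 to 3.52 in YFP+ and from 3.97 to 5.40 in YFP-, and that of the fibroblast markers from 3.72 to 5.09 and from 5.66 to 7.04. All 3 red cell markers tested were lower and 2 fell, Hbb-b1 (-3.64) and Hba-a1 (-1.99), with a summed level of 1.67 to 4.58 in YFP+ and 4.56 to 6.29 in YFP-. All 6 acinar markers were lower and 1 fell, Cela1 (-3.43), with a summed level of 1.33 to 3.77 and 2.50 to 6.24. In the remaining lists none was called. Neutrophil markers were lower in 5 of 6 (Ltf -1.65, S100a9 -1.67; summed level -0.04 to 1.27 and 1.23 to 2.71), and endothelial ones in 5 of 6 (0.38 to 0.97 and -0.13 to 2.0). B and plasma cell markers were higher in 4 of 6 (Jchain 4.78, Sdc1 -1.13; 1.71 to 4.22 and 1.58 to 2.81), dendritic cell ones in 5 of 6 (Batf3 1.19, Cd209a 1.29; 1.5 to 3.87 and 0.37 to 3.20) and T and NK cell ones in 3 of 4 (-1.26 to 0.18 and -1.50 to -0.43). Among 10 macrophage markers none was called, 9 were lower and 1 higher in YFP+, and the median difference was -0.13. Their summed level was 7.18 to 7.95 in YFP+ and 7.33 to 8.15 in YFP-. The class I pathway is carried by those other cells as well, and their part in the values below was not tested. In such bulk RNA, fewer cells of a type and less RNA per cell cannot be told apart.

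**Figure D1:**
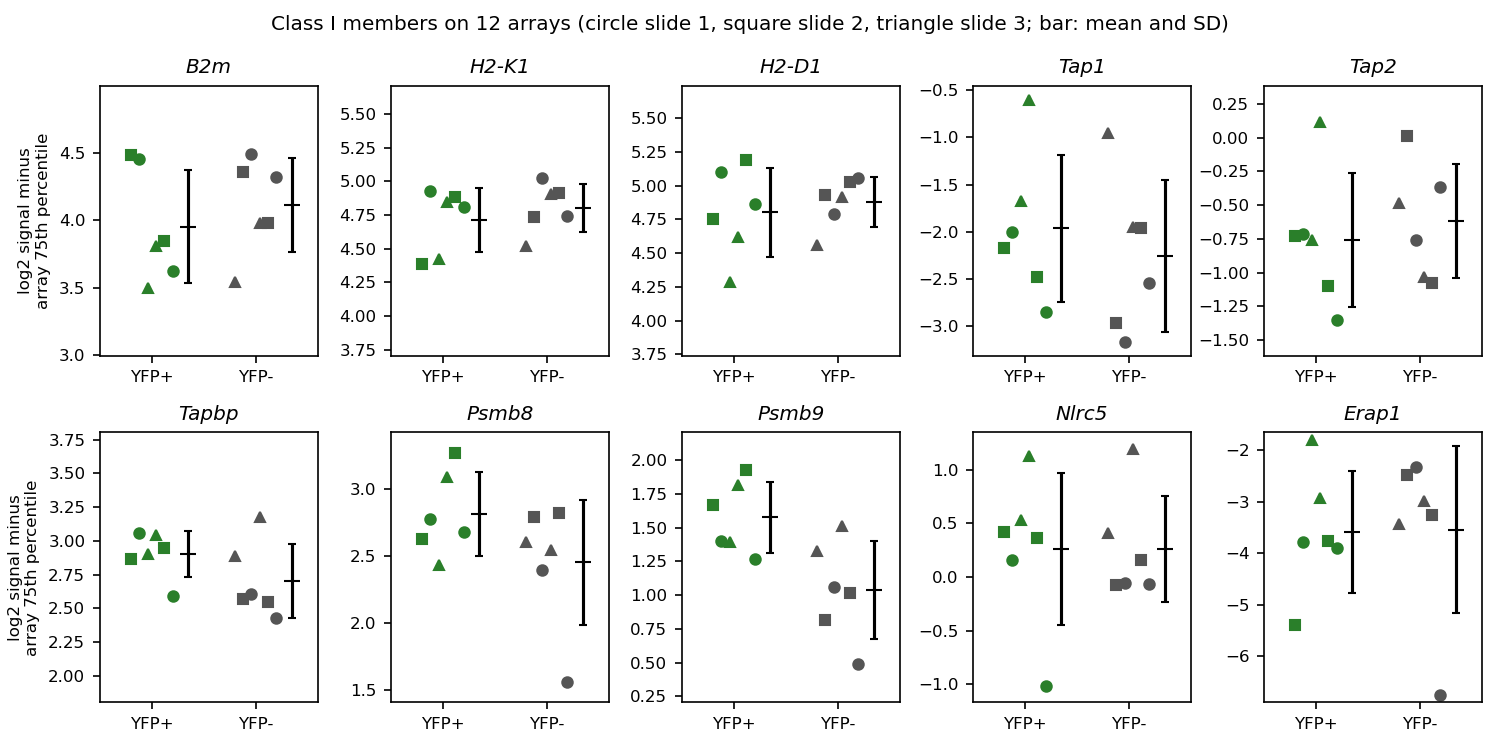
Level of each of the 10 genes on each array, as log2 of the processed signal minus the array's 75th percentile, with YFP- and YFP+ side by side and bars for the mean and SD of 6 arrays. The 2 groups overlap in every panel, and they come nearest to parting for Psmb9, at 1.27 to 1.92 in YFP+ and 0.49 to 1.51 in YFP-.

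The light chain and heavy chains are the molecules that reach the surface. B2m encodes beta-2-microglobulin, the light chain shared by all classical class I molecules. Its level was 3.50 at the lowest, 3.83 at the median and 4.48 at the highest in YFP+, and 3.54, 4.15 and 4.49 in YFP-. Both groups covered the same range, and 2 of the 6 YFP+ arrays (replicates 1 and 2) lay near the top of it. The difference was -0.16 (SE 0.24, interval -0.68 to 0.36, limma adjusted p 0.89). B2m varied between arrays more than 69.0% of genes of similar level did.

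H2-K1 encodes the classical heavy chain K. It ran from 4.39 through a median of 4.83 to 4.93 in YFP+ and from 4.52 through 4.82 to 5.02 in YFP-. The medians of the groups were nearly equal, and the spread was wider than that of only 13.0% of genes of similar level. The difference was -0.09 (SE 0.17, interval -0.46 to 0.28, limma adjusted p 0.91). H2-D1, the classical heavy chain D, ran from 4.29 through 4.81 to 5.19 in YFP+ and from 4.56 through 4.92 to 5.06 in YFP-. The YFP- arrays lay within the YFP+ range, and the difference was -0.08 (SE 0.19, interval -0.49 to 0.34, limma adjusted p 0.94).

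Class I heavy chains are close relatives, and an array probe can bind more than the gene it is named for. The H2-K1 probe used here lies at chr17:34133984-34134043 on the minus strand (mm9, per the array's annotation), and its 60 bases share a run of 29 with the probe for H2-T23, the chain that carries the Qa-1 molecule. The 2 probes are shown with the shared run in capitals.

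H2-K1 probe: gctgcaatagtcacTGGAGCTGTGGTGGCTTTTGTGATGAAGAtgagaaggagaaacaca
H2-T23 probe: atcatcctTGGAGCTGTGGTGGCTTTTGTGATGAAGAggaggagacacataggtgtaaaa

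In all, 4 probes of other names share at least 16 bases with that H2-K1 probe. The second H2-K1 probe, at chr17:34133055-34133114, shares no such run with a probe of another name. It gave a difference of -0.00 (SE 0.16), and H2-T23 gave -0.03. The 2 H2-K1 probes moved together over the 12 arrays, with r = 0.63 after each group's mean was removed. Every one of these values lay well inside the spread between arrays. Of the other members only Nlrc5 and Tapbp shared such a run with a differently named probe, 17 bases with Serpina3b and 16 with Gbx1. Probes were compared only with other probes of the array and not with transcripts. The lack of a shared run therefore does not show that a probe binds only the gene it is named for.

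The transporter is a pair of chains. Tap1, one of them, ran from -2.85 through -2.09 to -0.61 in YFP+ and from -3.16 through -2.25 to -0.96 in YFP-. The highest array of each group, YFP+ replicate 4 and YFP- replicate 1, stood well above the next, at -1.67 and -1.95. The difference was 0.29 (SE 0.43, interval -0.65 to 1.23, limma adjusted p 0.88). Its probe is printed 10 times on each array, and the SD between those spots had a median of 0.10 over the 12 arrays (0.07 to 0.22), against an SD between arrays of 0.78 in YFP+ and 0.81 in YFP-.

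Tap2, its partner chain, ran from -1.35 through -0.75 to 0.12 in YFP+ and from -1.08 through -0.62 to 0.01 in YFP-. The groups shared nearly all of their range, and the difference was -0.14 (SE 0.27, interval -0.73 to 0.45, limma adjusted p 0.92). Tapbp encodes tapasin, which holds the empty heavy chain next to the transporter. It ran from 2.59 through 2.92 to 3.06 in YFP+ and from 2.43 through 2.59 to 3.18 in YFP-. YFP+ was higher at 4 of 6 tumour numbers, and the difference was 0.20 (SE 0.18, interval -0.19 to 0.58, limma adjusted p 0.77).

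The inducible proteasome subunits carried the largest positive differences of the 10. Psmb9 encodes the subunit LMP2, which replaces the constitutive subunit Psmb6. Its probe, at chr17:34319174-34319233 on the minus strand (mm9), is shown because the only unadjusted difference of the 10 rests on it, and it shares no run of 16 bases with a probe of another name.

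Psmb9 probe: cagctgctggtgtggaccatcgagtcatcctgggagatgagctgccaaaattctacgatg

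Psmb9 stood at 1.67, 1.40, 1.39, 1.81, 1.92 and 1.27 on YFP+ replicates 1 to 6 and at 1.33, 0.82, 1.06, 1.51, 1.02 and 0.49 on YFP- replicates 1 to 6. YFP+ was the higher at each tumour number, as was so for 3.09% of all genes tested, and 2 YFP- arrays (replicates 1 and 4) reached into the YFP+ range. The difference was 0.54 (SE 0.21, interval 0.08 to 1.0). Its unadjusted limma p was 0.0241, a level that 11.2% of all genes tested passed, and an exact two-sided permutation test of the 6 against 6 arrays gave an unadjusted p of 0.0173. After adjustment over all genes the limma p was 0.318, and over the other settings tried it ranged from 0.11 to 0.93. The difference was positive within each slide, at 0.56, 0.88 and 0.19.

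Psmb8 encodes LMP7, which replaces Psmb5. It ran from 2.43 through 2.73 to 3.27 in YFP+ and from 1.56 through 2.57 to 2.82 in YFP-. YFP+ was higher at 5 of 6 tumour numbers, but YFP- replicate 6 lay far below the other YFP- arrays. The difference was 0.36 (SE 0.24, interval -0.17 to 0.89, limma adjusted p 0.66). Within slides it was 0.75, 0.14 and 0.19, and YFP- replicate 6 lies in the slide with the first of these. Without that array the difference was 0.18.

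**Figure D2:**
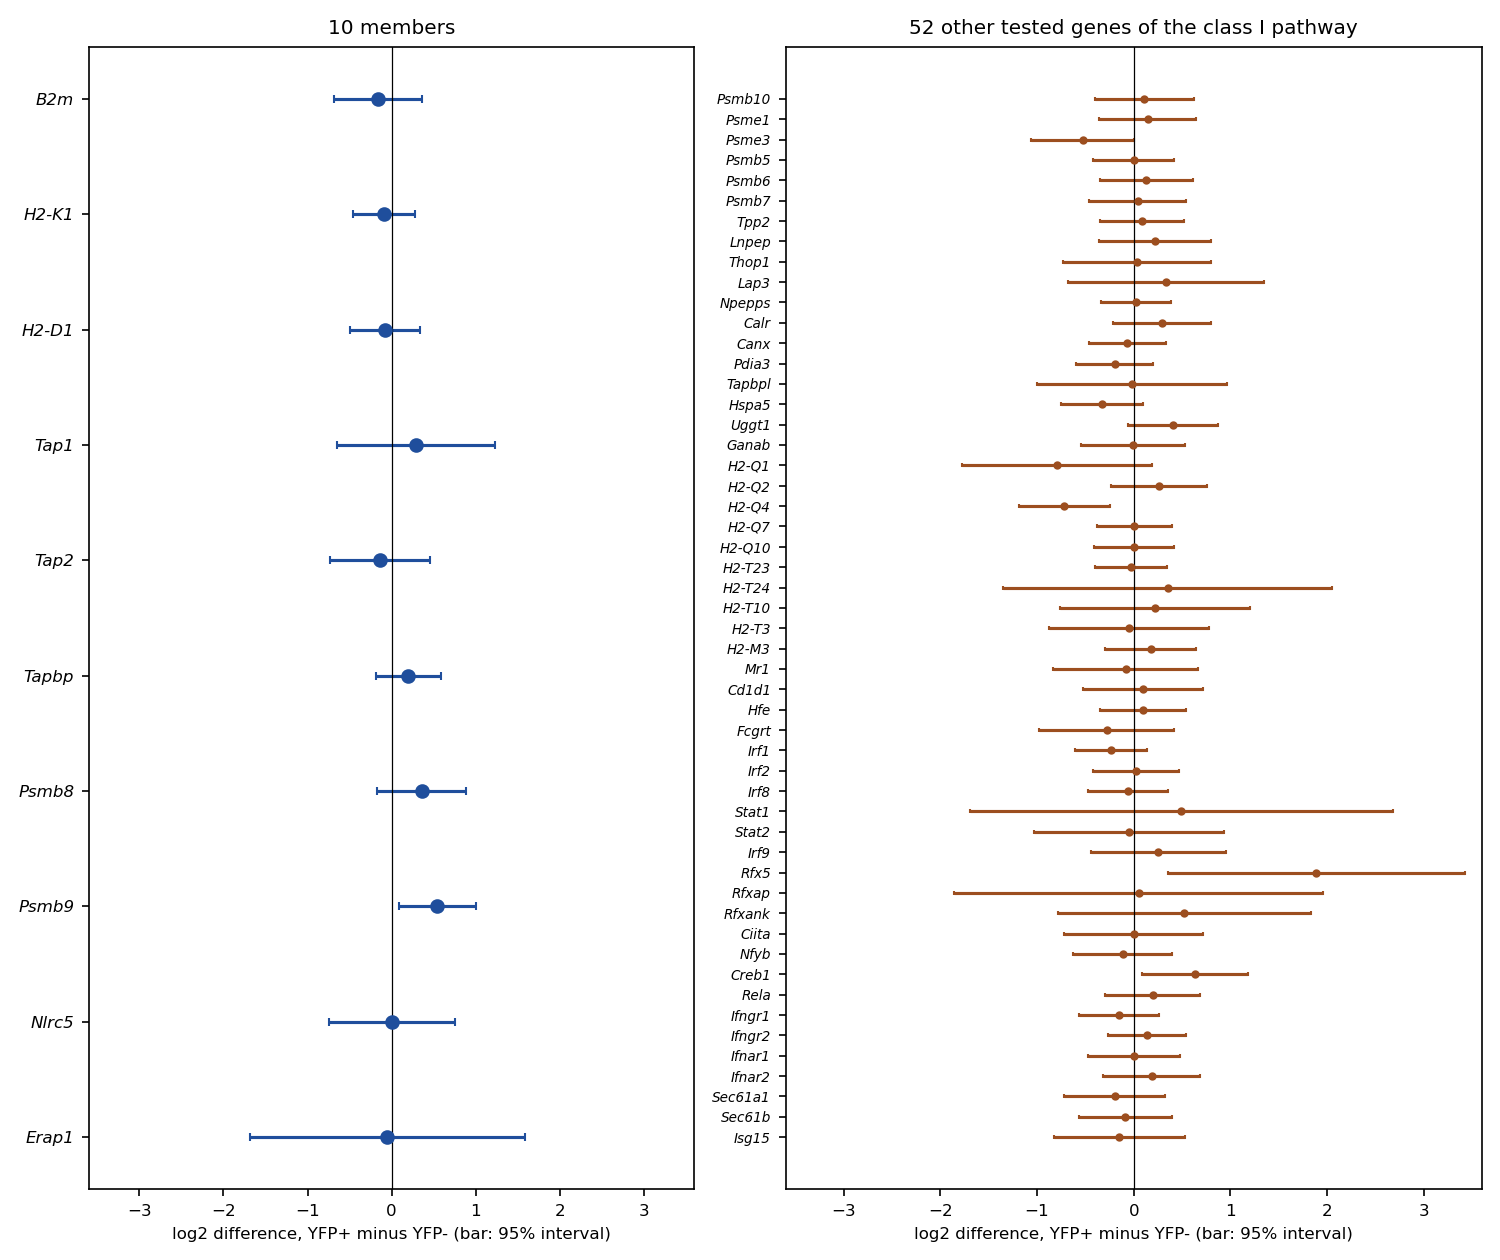
Difference YFP+ minus YFP- of each of the 10 genes on the log2 scale, with the 95% interval of the limma fit. Only the interval of Psmb9 leaves out 0 (0.08 to 1.0), before any adjustment, and that of Erap1 is the widest (-1.69 to 1.58).

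Whether the inducible subunits moved against the ones they replace was read within each array, as the log2 level of the inducible minus that of the constitutive subunit. These are differences between probes, so only their change between groups has a meaning. Psmb8 minus Psmb5 was higher in YFP+ by 0.36 (1.28-fold, exact two-sided permutation p = 0.152, adjusted over the 3 pairs 0.25), and by 0.22 without YFP- replicate 6. Psmb9 minus Psmb6 was higher by 0.41 (1.33-fold, exact permutation p = 0.167, adjusted 0.25). Both were higher in YFP+ at 5 of 6 tumour numbers and within all 3 slides, at 0.63, 0.26 and 0.19 for the first pair and 0.43, 0.62 and 0.19 for the second. Psmb10 minus Psmb7, the remaining exchange, differed by 0.07 (exact permutation p = 0.721, adjusted 0.72), was higher in YFP+ at 2 of 6 tumour numbers and went both ways within slides. None of the 3 pairs passed the test.

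**Figure D3:**
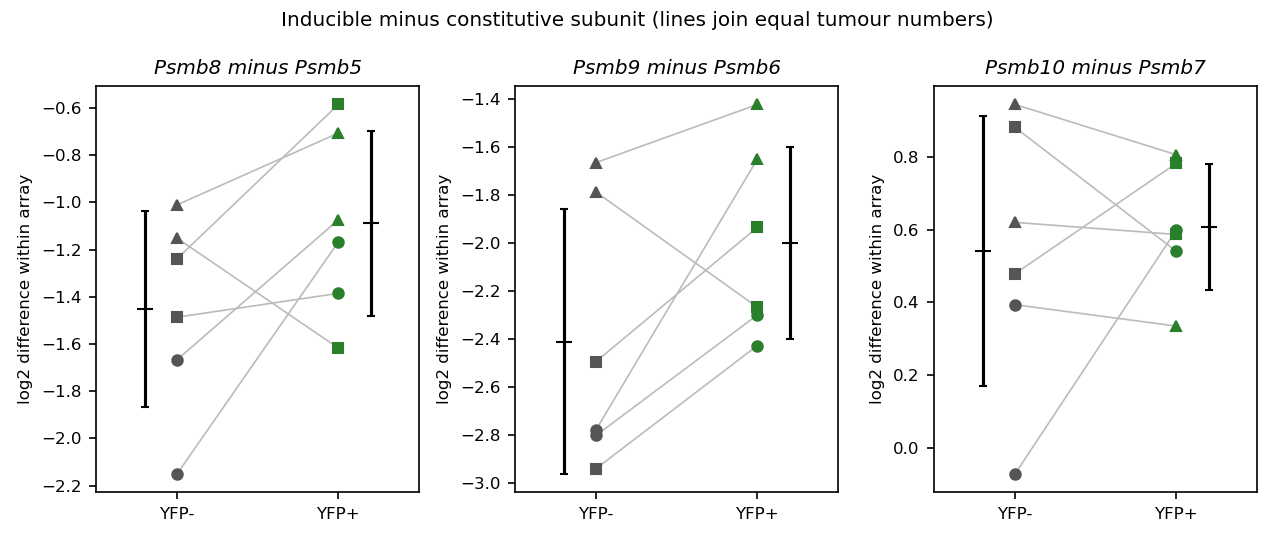
Inducible minus constitutive proteasome subunit within each array (log2), for 3 pairs, with the mean and SD of each group of 6 arrays, marker shapes for the 3 slides, and lines joining equal tumour numbers, which the labels do not say are the same animal. The lines rise at 5 of 6 numbers for Psmb8 and Psmb9 and at 2 of 6 for Psmb10.

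Nlrc5 encodes the transactivator of class I genes. It ran from -1.02 through 0.39 to 1.13 in YFP+ and from -0.08 through 0.05 to 1.20 in YFP-. The 2 group means were equal to 2 decimals at 0.26, and YFP+ replicate 6 was the lowest of all 12 arrays. The difference was 0.00 (SE 0.34, interval -0.75 to 0.75, limma adjusted p 1.0). The second Nlrc5 probe gave 0.09 (SE 0.38), and the 2 probes correlated at r = 0.35 over the 12 arrays after each group's mean was removed. Erap1, the aminopeptidase that trims peptides in the endoplasmic reticulum, was above background on 5 arrays of each group. It ran from -5.39 through -3.76 to -1.80 in YFP+ and from -6.75 through -3.12 to -2.33 in YFP-. Each group spread over more than 3 log2 units, and the difference was -0.05 (SE 0.75, interval -1.69 to 1.58, limma adjusted p 0.99). Without YFP- replicate 6, the lowest array, it was -0.69 (SE 0.53, limma adjusted p 0.73).

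Seen together, 5 of the 10 differences were positive and 5 negative, with a median of -0.02, where the median over all genes tested was -0.03. The median size of the difference was 0.15 for the 10 and 0.29 over all genes tested. In 8 of the 10 the 95% interval lay within 1 log2 unit of 0, as it did for 44.8% of all genes tested. The exceptions were Tap1 and Erap1, and Psmb9 was only just inside (upper limit 0.999994). The median SE was 0.24 for the 10 and 0.35 over all genes tested, so the 2 shares are not of equally precise genes. Which genes lay above 0 depended on the scaling. When arrays were centred on their median instead of their 75th percentile, the median over all genes moved from -0.03 to 0.18 and all 10 members were above 0, with a median of 0.18.

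Each slide held 2 arrays of each group, so the slide could be set against the reporter. Tap1 averaged -2.64 on slide 1, -2.39 on slide 2 and -1.30 on slide 3. It was the 1 member of 10 called for slide (limma F test with the group in the model, adjusted p 0.0436), where 20.6% of all genes tested were called. Every slide 3 array of Tap1 (-1.95 to -0.61) was above every array of the other slides (-3.16 to -1.96). Nlrc5 averaged -0.25, 0.21 and 0.82 and did not pass (adjusted p 0.0685). With the slide as a block, none of the 10 was called for YFP, where 556 of the 20370 genes and features tested were called.

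**Figure D4:**
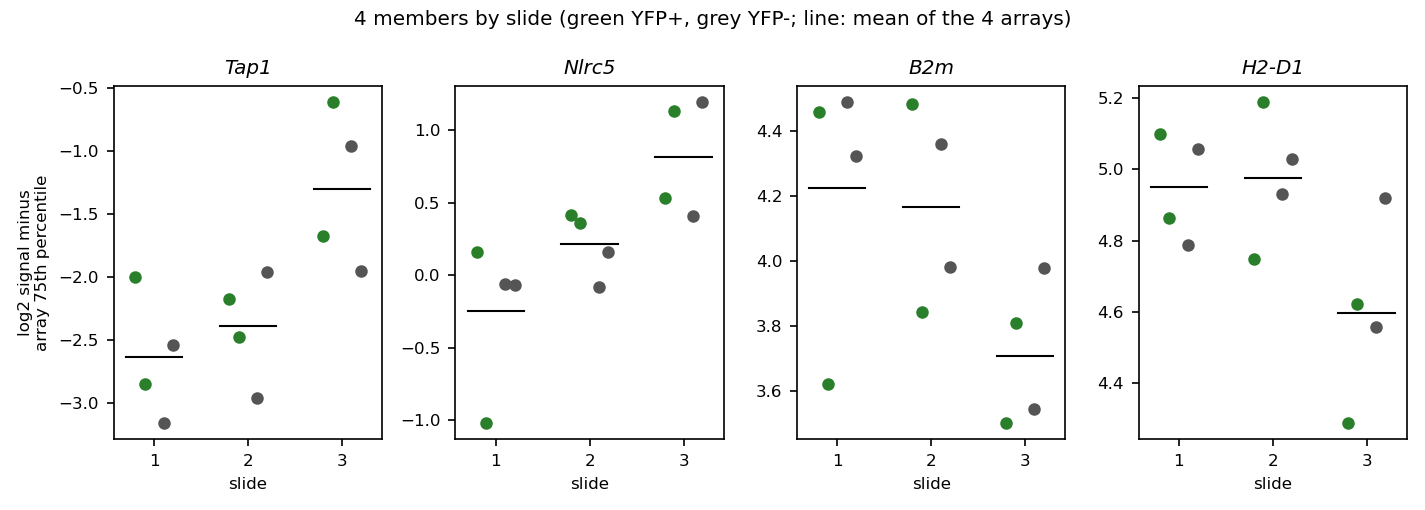
Level of Tap1, Nlrc5, B2m and H2-D1 by slide (log2 signal minus 75th percentile), with YFP+ and YFP- arrays marked. Tap1 averages -1.30 on slide 3 against -2.64 and -2.39 on slides 1 and 2, and in both groups the highest array is on slide 3.

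Over the 12 arrays, with each group's mean removed, the members formed 45 pairs, of which 28 correlated positively, with a median r of 0.17 and a range of -0.49 to 0.82. The highest was Tapbp with Nlrc5, at Pearson r = 0.82 (permutation p 0.0020) and Spearman rho 0.75 (permutation p 0.0099). It did not pass adjustment over the 45 pairs (0.092 for r and 0.112 for rho), and none did. Without the 2 arrays farthest from the median of Tapbp its r was 0.85. Over all 12 arrays, with the mean of each group on each slide removed, it was 0.91. Each such mean covers only 2 arrays, so the 2 values left mirror each other. An r of this kind rests on fewer independent values than an r over 12 arrays. Psmb8 with Psmb9 had r = 0.65 (permutation p 0.0375, adjusted 0.338) and rho 0.50 (permutation p 0.112, adjusted 0.642). That r fell to 0.29 without the 2 arrays farthest from the median of Psmb8. Leaving out the ends of a gene's range can by itself lower r, and the cause of the fall was not tested. With slide means removed over all 12 arrays the r of Psmb8 with Psmb9 was 0.91, under the same limit.

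The 2 genes most like each member across the 12 arrays were of mixed kinds. The nearest to B2m were Ssb (r = 0.96) and Rpl23 (0.95), and to H2-K1 Pabpc5 (0.88) and Gna15 (0.84). H2-D1 lay nearest to Gsta3 (0.93) and Rn28s1 (0.93). Tap1 lay nearest to Zhx1 (0.93) and Rtl8c (0.92), Tap2 to Nup35 (0.83) and Shfl (0.82), and Tapbp to Hnrnpm (0.93) and Marchf8 (0.92). Psmb8 lay nearest to Apeh (0.92) and Itih2 (0.87), and Psmb9 to H4c11 (0.94) and H4c4 (0.92), both histone genes. For Nlrc5 they were Sulf2 (0.93) and Ifi205 (0.93), and for Erap1 Lman2l (0.94) and Ifi27 (0.92). These are the highest values over 12 arrays that share slides, and are given as a description. They were picked from the 20370 tested, leaving out the members and features with only an accession, clone or predicted-gene name.

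The rest of the pathway was read from a list of 58 genes. Of these 58 listed, 52 were tested, 31 with a positive and 21 with a negative difference, and the median was 0.02. None was called, where 1.75% of all genes tested were. Among the immunoproteasome and its regulators, Psme3, which encodes the PA28 gamma cap, had -0.53 (SE 0.25, limma adjusted p 0.45) and Psme1, PA28 alpha, 0.15 (SE 0.23, adjusted p 0.89). Of the constitutive catalytic subunits, Psmb6 had 0.13 and Psmb7 0.04. In the loading group Uggt1, the glucosyltransferase that returns misfolded chains for another round, had 0.40 (SE 0.21, adjusted p 0.53) and the chaperone Hspa5 -0.33 (SE 0.20, adjusted p 0.60). All 5 trimming peptidases tested lay between 0.02 and 0.33, with Lnpep at 0.22 and Lap3 at 0.33, and none passed.

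The nearest to a call outside the 10 was H2-Q4, a non-classical heavy chain of the Q region. It ran from 4.73 to 5.13 in YFP+ and from 4.87 to 6.21 in YFP-. All YFP- arrays but replicate 1 lay above every YFP+ array, and replicate 1 lay among them. The difference was -0.72 (SE 0.22, limma adjusted p 0.161). Without YFP- replicate 1 it was -0.87 with an adjusted p of 0.0383 (limma), the only call among the 52 in any setting tried. In that setting 322 of the 20370 genes and features tested were called. H2-Q1, a chain of the same region, had -0.79 (SE 0.45, adjusted p 0.58) and was above background on 2 YFP+ and 4 YFP- arrays. Of the regulators, Rfx5, a subunit of the factor on class I and class II promoters, had 1.89 (SE 0.71, adjusted p 0.295; above background on 6 YFP+ and 4 YFP- arrays) and Creb1 0.63 (SE 0.25, adjusted p 0.336). Among interferon receptor chains, Ifngr1 had -0.16 and Ifnar2 0.18, and in the ubiquitin and export group Sec61a1 had -0.20 and Isg15 -0.15. Of 13 class II genes none was called, where 1.75% of all genes tested were. Of the 13, 8 were positive and the median was 0.04. H2-DMb2 had 0.61 (limma adjusted p 0.294) and H2-Oa 0.72 (limma adjusted p 0.351).

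Promoters of class I genes carry a conserved module on which Rfx factors, Creb family factors, NF-Y and Nlrc5 meet. RefSeq promoter sequences (GRCm38.p6) were at hand for 8 of the 10 members, all but Tap2 and Nlrc5. In 3 of them, B2m, H2-K1 and H2-D1, a TGACG is followed after 20 bases by ATTGG, which reads CCAAT on the other strand. That layout is in 25 of 27025 promoters of the same length (0.0925%, either strand). It was described after the sequences were seen. The 250 bases before each start are shown, in the direction of transcription, with the 2 short runs in capitals, because the layout joins the light chain to both heavy chains, none of which was called. For H2-K1 the first start listed was used. They lie at chr2:122147437-122147686 (plus strand), chr17:34000348-34000597 (minus) and chr17:35262844-35263093 (plus).

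B2m promoter: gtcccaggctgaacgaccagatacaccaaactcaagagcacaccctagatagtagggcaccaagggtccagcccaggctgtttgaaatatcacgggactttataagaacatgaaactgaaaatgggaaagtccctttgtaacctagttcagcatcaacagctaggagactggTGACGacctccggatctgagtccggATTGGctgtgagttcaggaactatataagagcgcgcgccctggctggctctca
H2-K1 promoter: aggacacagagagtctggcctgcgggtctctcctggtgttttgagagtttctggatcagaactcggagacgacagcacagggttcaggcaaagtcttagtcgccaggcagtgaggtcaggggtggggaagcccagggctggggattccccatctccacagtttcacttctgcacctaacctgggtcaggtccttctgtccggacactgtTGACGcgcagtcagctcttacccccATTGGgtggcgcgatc
H2-D1 promoter: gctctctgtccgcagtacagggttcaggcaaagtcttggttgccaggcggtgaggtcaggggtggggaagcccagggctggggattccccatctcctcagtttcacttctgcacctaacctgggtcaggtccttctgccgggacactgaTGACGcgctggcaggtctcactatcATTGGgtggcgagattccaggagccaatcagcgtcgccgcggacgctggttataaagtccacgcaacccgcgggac

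The layout begins 78 bases before the start of B2m, 41 before that of H2-K1 and 101 before that of H2-D1. Psmb9 and Tap1 lie head to head and share 225 bases between their starts, at chr17:34187331-34187555. The interval is shown because it joins the member with the largest difference to a neighbour on the chromosome. It is given on the plus strand, from the Psmb9 to the Tap1 start, with its CCAAT and its TGACG in capitals.

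Psmb9 to Tap1 interval: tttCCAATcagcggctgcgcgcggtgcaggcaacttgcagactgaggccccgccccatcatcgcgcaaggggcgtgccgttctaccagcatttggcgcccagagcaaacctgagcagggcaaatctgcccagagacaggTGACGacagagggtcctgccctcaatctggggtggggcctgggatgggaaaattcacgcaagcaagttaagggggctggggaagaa

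The interval holds 1 CCAAT, 1 TGACG and 5 matches of GGG, any 5 bases, CC (a loose NF-kappa-B pattern), over both strands and with overlaps counted. Single matches of these are common, with CCAAT in 34.5%, TGACG in 17.9% and the NF-kappa-B pattern in 45.4% of all promoters. GAAA, any 2 bases, GAAA (the core of the interferon response element) was found in 3.04% of promoters and in 1 of the 8 members, B2m. TTCNNNGAA, the STAT pattern, was found in 7.18% and in 1 of the 8, Psmb8. A match is a description of letters and not a binding site, and no binding was measured here. Only these exact patterns were searched, so the lack of a match does not show that such an element is absent.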

How the data were processed

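The data are 12 one-colour Cy5 arrays (Agilent 4x44K). The authors extracted spots with Agilent Feature Extraction 11.5.1.1, per the submitters' processing notes; the processed red signal used here is an intensity, background-subtracted, per the file headers. The authors' deposited value table holds log2 values that rank as the scanner files do (Spearman correlation 1.00, rounded) with a median of 8.83 on each array; its further scaling steps are not given in the sources used here. Control spots (1377) and outlier-flagged spots were left out, spots of a probe were averaged, and log2 signal minus each array's 75th percentile was taken. No probe was saturated. A probe had to be well above background on 6 or more arrays (25435 were) and the brightest probe stood for a gene. Gene names came from the files, with 28330 probes matched to RefSeq transcripts and 1403 renamed. Groups were compared with limma 3.58.1 (R 4.3.3), with Benjamini-Hochberg adjustment over 20370 genes and features at 0.05, which called 356 (68 higher, 288 lower in YFP+; 116 of 346 higher with median centring). Array number limits the precision. The script was tested on simulated data. Motifs were counted in Python 3.11.15.

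The members, lists, roles and tests were chosen with earlier results of these data known. The genes named were the members, the 2 pathway genes of each role with the smallest p, the 2 most alike for each member, and at most 2 markers a list. Alternatives covered background correction, normalization, filter, probe rule, variance model, slide, tumour number, brightness and leaving out arrays. The slide test, the promoter layout and the probe overlap were added after seeing the data.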

Additional observations from a re-analysis of the deposited data

Results flagged for a closer look

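In 26 groups of 6 arrays, 2 values stood apart from the other 5 by Dixon's 95% criterion, which chance alone flags in about 1 group in 20. Psmb8 was 1.56 in YFP- replicate 6, where the nearest other YFP- array was at 2.40, a gap of 0.665 of the group's range. Erap1 was -6.75 in the same array, where the nearest was at -3.43, a gap of 0.750 of the range.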

How the results depend on the processing

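No member was called under any alternative, and the sign of Psmb8 and Psmb9 held in all 41 run on each. Many of these could not turn a sign. Changes of filter or probe rule, the intensity trend, and blocks for slide or tumour number left both differences as they were. All signs that turned belonged to differences that were not called; the cause was not tested. With normexp, Nlrc5 was -0.027. With quantile normalization H2-K1 was 0.16, H2-D1 0.16, Nlrc5 -0.0051 and Erap1 0.10, and with the deposited values they were 0.16, 0.16, -0.0048 and 0.10. Median centring gave B2m 0.048, H2-K1 0.12, H2-D1 0.13, Tap2 0.068 and Erap1 0.16, and array weights H2-D1 0.0091 and Nlrc5 -0.076. Slide 1 alone gave H2-D1 0.058, Nlrc5 -0.37 and Erap1 0.70, and slide 3 alone Tap2 0.44, Tapbp -0.058 and Erap1 0.84. With array brightness as a covariate, which moves with the groups, B2m was 0.58, H2-K1 0.17, H2-D1 0.23, Tap1 -1.27, Nlrc5 -0.22 and Erap1 0.49. Without slide 1 Tap2 was 0.027, without slide 2 Nlrc5 was -0.17 and Erap1 0.77, and without slide 3 H2-D1 was 0.023 and Nlrc5 -0.011.

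Leaving out replicates in 18 fits moved the difference from -0.38 to 0.0061 for B2m, -0.15 to 0.0095 for H2-K1, -0.16 to 0.024 for H2-D1, 0.02 to 0.59 for Tap1, -0.40 to 0.029 for Tap2, 0.14 to 0.29 for Tapbp, 0.18 to 0.43 for Psmb8, 0.43 to 0.64 for Psmb9, -0.17 to 0.26 for Nlrc5 and -0.69 to 0.33 for Erap1. The count of pathway genes called went from 0 to 1, Psmb8 minus Psmb5 from 0.22 to 0.47, Psmb9 minus Psmb6 from 0.30 to 0.56 and Psmb10 minus Psmb7 from -0.055 to 0.15. YFP- replicate 6 gave the lowest value of the first and last pair when left out. With quantile normalization Psmb8 minus Psmb5 was 0.23 and with the deposited values 0.23.

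Samples of equal tumour number did not all deviate together (correlations of -0.30, 0.11, -0.13, 0.37, 0.19 and 0.28), so the numbers were not taken to pair them. Both arrays of numbers 4, 5 and 6 share a slide and those of 1, 2 and 3 do not, so slide and number cannot be told apart in these correlations, and whether the numbers pair the samples is not settled by them. With the number as a fixed replicate block 0 members and 296 of all genes were called, and as a random block 0 and 431, against 0 and 356. Calls among all genes were 547 with normexp, 556 with the slide as a block, 562 at a threshold of 0.1, 144 at 0.01, 12 with brightness as a covariate, 151, 112 and 196 without slides 1, 2 and 3, and 0 within each slide alone (limma, with 1847, 1799 and 1619 at an unadjusted p under 0.05). Erap1 was not tested where all 12 arrays had to be above background. The number of arrays, 6 a group, limits the precision. Without YFP- replicate 6 the SE of Erap1 went from 0.75 to 0.53.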
